A study of Mus musculus with 38 samples.

Results

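The dermal papilla and the bulge, a mesenchymal and an epithelial compartment of the mouse hair follicle, were compared in dorsal skin at postnatal day 30 (P30), when wild type follicles are in anagen, the growth phase. The members of this comparison were 4 of the 38 RNA-seq libraries of the series: 2 of wild type dermal papilla cells and 2 of wild type bulge stem cells, all from mice without the mutant transgene. Genes were joined on their Ensembl identifier, and 12684 of 15464 protein-coding genes listed for both compartments reached 1 FPKM (fragment counts corrected for the length of the transcript and the size of the library) in at least 2 of the 4 libraries. A gene counted as different only if the lower library of one compartment stood at least 8-fold above the higher library of the other, after values under 0.1 FPKM were set to 0.1 and libraries were rescaled by median ratios.

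The groups used beside these were the same 2 cell types from wild type mice at P56, in telogen, the resting phase, and from Tyr-Nras Q61K mice, which carry an oncogenic *Nras* driven in melanocytes, at P30 and P56, with 2 libraries in each. Bulge cells had been sorted for GFP from K14-H2B-GFP mice, which label keratin 14 expressing cells, and for surface CD34 and low P-cadherin. For the dermal papilla cells, no purification scheme was found in the labels or methods. Where 2 values are given for a group, they are those of replicates 1 and 2. The study's methods describe the bulk samples as biological replicates, and the labels do not name the animals.

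The dermal papilla is a condensate of mesenchymal cells at the base of the follicle, and its secreted factors instruct the epithelium above it. The bulge is the reservoir of epithelial stem cells in the upper follicle; these cells sit on a basement membrane, express keratins 5, 14 and 15, and replenish the cycling lower follicle. WNT and R-spondin signals favour hair growth, while BMP signals hold the stem cells at rest and are countered by secreted BMP antagonists.

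The 2 compartments were listed in separate tables with different lowest values and gene lists, so no test was run between them at P30, and an exact permutation test of 2 against 2 libraries could not have gone below p = 0.333. In all, 987 genes were higher in the dermal papilla (7.78% of those tested) and 762 were higher in the bulge (6.01%). Most genes did not pass on either side, and 6576 genes, 51.8% of those tested, differed by less than 2-fold in their mean log2 value. The gap was at least 32-fold for 408 genes in the dermal papilla and 237 in the bulge. Without the 8-fold gap, the libraries of the 2 compartments did not overlap for 43.2% of genes with the dermal papilla higher and for 41.5% with the bulge higher. At the threshold, *Ankrd29* (8.01-fold) and *Fanci* (8.01-fold) were just inside, while *Mest* (7.98-fold) and *Efnb2* (7.99-fold) were just outside.

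**Figure D1:**
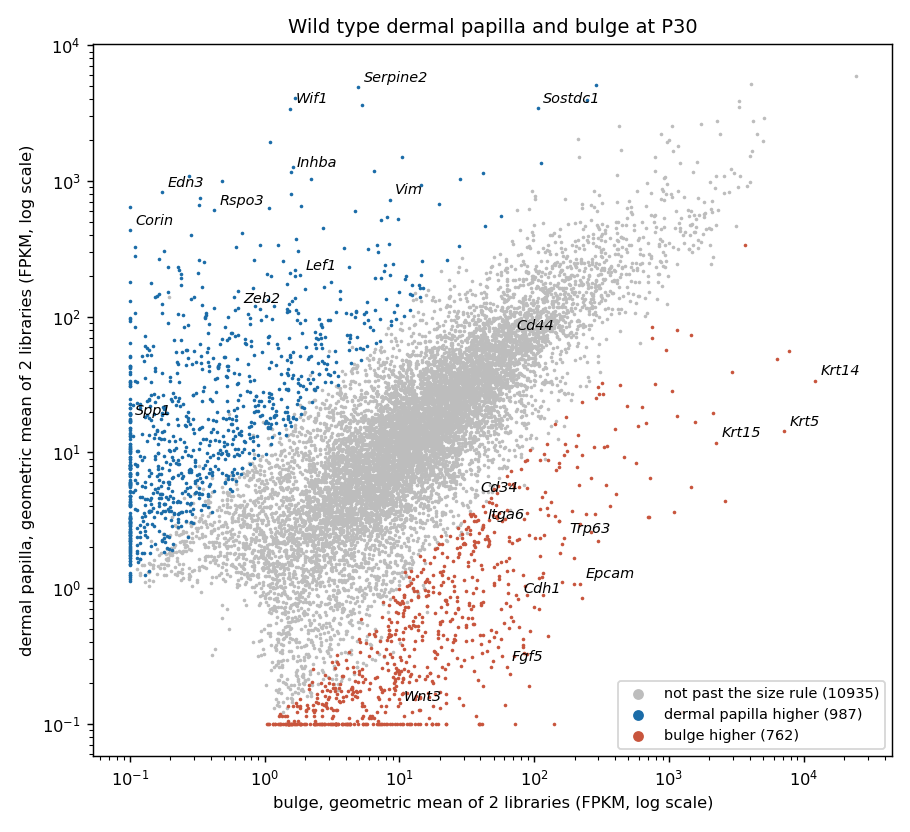
Each point is 1 of 12684 protein-coding genes in the wild type P30 libraries, with the geometric mean of the 2 bulge libraries on the x axis and of the 2 dermal papilla libraries on the y axis, both in FPKM on log scales with values under 0.1 set to 0.1. The 987 genes higher in the dermal papilla lie at the upper left, the 762 higher in the bulge at the lower right, and *Cd44* lies among the grey genes past neither side of the rule.

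The identity of both populations was read from markers before any other gene. Of 19 dermal papilla markers, 18 were higher in the dermal papilla (94.7%, beside 7.78% of all genes) and none in the bulge. Their summed level was 15878 and 18245 FPKM in the dermal papilla libraries against 146 and 152 FPKM in the bulge libraries. *Corin*, a serine protease of the dermal papilla on chromosome 5 (GRCm38, 72300025 to 72504473), was at 332 and 570 FPKM in the dermal papilla and at 0.1, the lowest value listed in that table, in both bulge libraries. *Alpl*, the alkaline phosphatase used to stain the papilla, was at 401 and 279 FPKM against 6.52 and 7.17 FPKM. The only marker short of the rule was *Prom1*, at 2.85 and 3.42 FPKM against 0.42 and 0.51 FPKM.

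Of 21 bulge markers, 11 were higher in the bulge (52.4%, beside 6.01% of all genes) and none in the dermal papilla. *Krt15* was at 2254 and 2248 FPKM in the bulge against 13.03 and 10.7 FPKM in the dermal papilla. *Lgr5*, an R-spondin receptor of hair follicle stem cells, was at 52.0 and 51.5 FPKM against 0.54 and 0.42 FPKM, and *Lhx2*, a stem cell transcription factor, was at 47.8 and 45.4 FPKM against 0.55 and 0.30 FPKM. The bulge libraries stood clear of the dermal papilla libraries for all 3 of these genes.

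The other 10 bulge markers did not pass the rule. *Cd34*, whose protein was part of the bulge sort, was at 38.2 and 34.9 FPKM in the bulge and 6.73 and 3.25 FPKM in the dermal papilla, a gap of 5.49-fold. *Nfatc1*, a transcription factor of resting bulge cells, was at 2.83 and 4.16 FPKM in the bulge and 8.43 and 5.47 FPKM in the dermal papilla. *Tcf7l1*, *Postn* and *Fgf18* also lay near each other in the 2 compartments, with log2 differences (dermal papilla minus bulge) between -0.26 and 0.44. Of the 21 markers, 3 had a log2 difference above 0, up to 2.07, and so were higher on average in the dermal papilla. The libraries of the compartments did not overlap for *Cd34* and *Nfatc1*, and they overlapped for *Tcf7l1*.

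Markers of other cells were read at levels that differed by list. General fibroblast markers summed to 4076 and 3000 FPKM in the dermal papilla and 231 and 228 FPKM in the bulge. Of these, 9 of 14 passed the rule in the dermal papilla (64.3%, beside 7.78% of all genes) and none in the bulge. Mural and muscle markers summed to 516 and 303 FPKM in the dermal papilla and 185 and 190 FPKM in the bulge, and genes of differentiated epidermis and sebaceous gland to 516 and 514 FPKM against 1672 and 1551 FPKM. The 7 endothelial markers listed for both compartments summed to at most 3.65 FPKM in any of the 4 libraries. The 8 melanocyte markers summed to at most 16.04 FPKM and the 10 immune markers to 18.4 to 64.8 FPKM, highest in dermal papilla replicate 1. That replicate also held more of the muscle genes than replicate 2, with *Des* at 28.0 against 1.51 FPKM. The bulge libraries held inner root sheath and differentiated keratinocyte genes, such as *Krt71* at 306 and 294 FPKM and *Krtdap* at 363 and 296 FPKM. Hair shaft and inner root sheath genes were also read in the dermal papilla, where their sum was 263 and 140 FPKM against 878 and 848 FPKM in the bulge. The part of such cells in the differences below was not tested. In bulk samples, fewer cells of a type and less RNA per cell cannot be told apart.

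**Figure D2:**
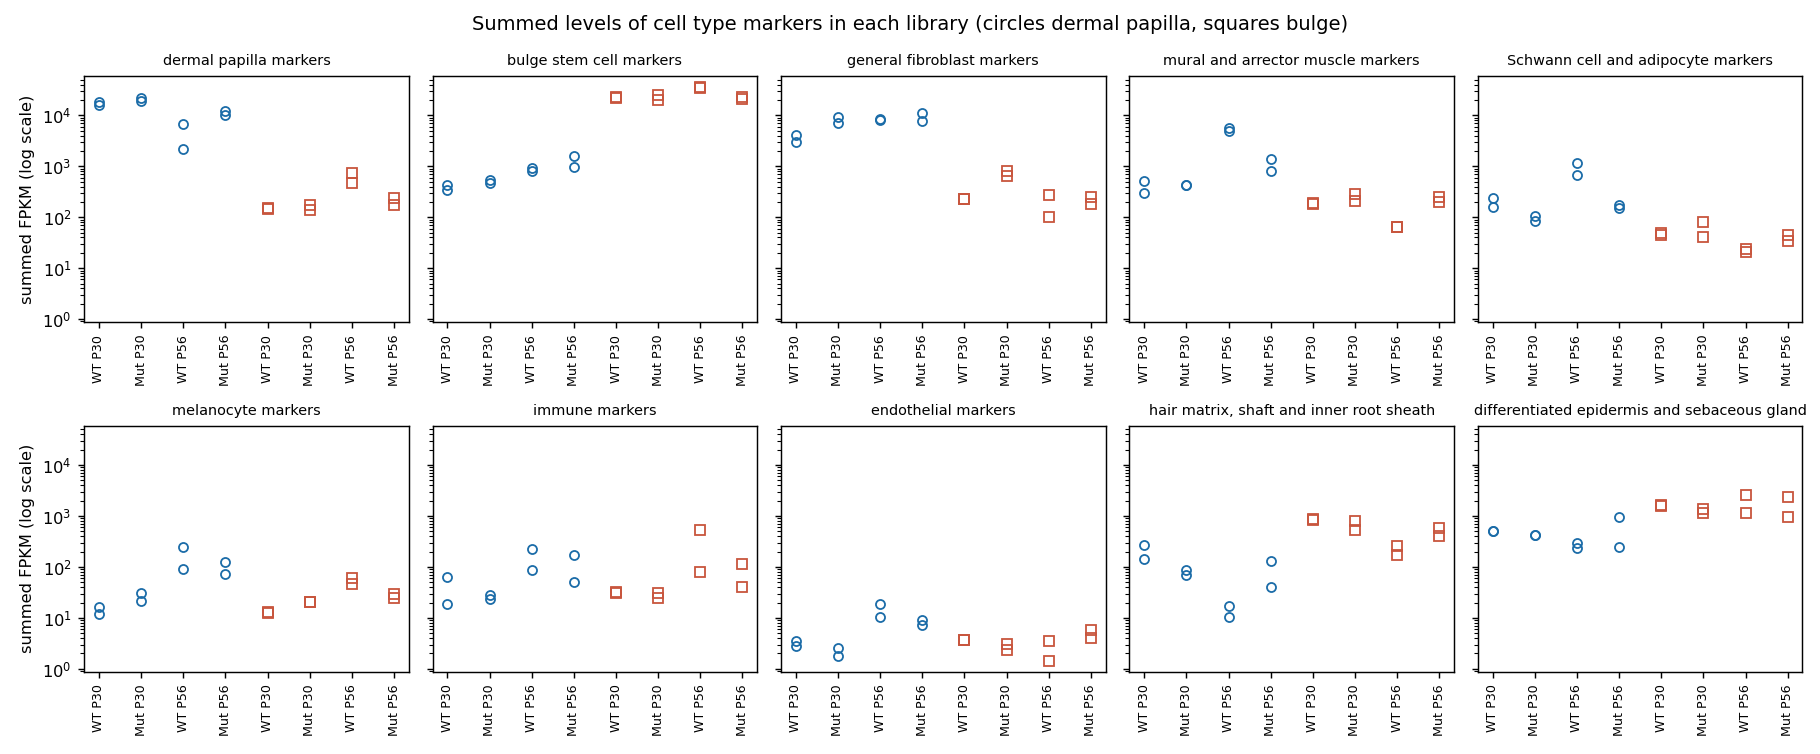
Summed FPKM (y axis, log scale) of 10 marker lists in each of the 16 dermal papilla (circles) and bulge (squares) libraries, by genotype and age on the x axis. At P30 the wild type dermal papilla sums of its own markers are 15878 and 18245 FPKM, and at P56 they are 2148 and 6883 FPKM while the sums of mural and muscle markers are 5584 and 5004 FPKM.

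By the size of the gap among genes at 20 FPKM or more, the 12 leading dermal papilla genes were *Chodl*, *Islr*, *Corin*, *Ndnf*, *Edn3*, *Hhip*, *Gldn*, *Wif1*, *Apod*, *Enpp2*, *Scube1* and *Rspo3*. Most encode secreted or surface proteins. *Chodl*, a membrane lectin, was at 435 and 956 FPKM in the dermal papilla and at 0.1 FPKM in both bulge libraries, so no fold is given. *Islr*, a marker of mesenchymal progenitors, was at 1070 and 1092 FPKM against 0.26 and 0.29 FPKM, with every dermal papilla library at least 3482-fold above every bulge library. *Edn3*, the endothelin that acts on melanocytes through EDNRB, lies on chromosome 2 (174760619 to 174784042) and was at 762 and 898 FPKM against 0.10 and 0.30 FPKM. *Apod*, a lipid-binding apolipoprotein, was at 3872 and 4376 FPKM against 2.37 and 1.21 FPKM. Highest in mean level among the listed genes that passed was *Sparc*, a matrix protein, at 4294 and 6019 FPKM against 283 and 297 FPKM, followed by *Serpine2*, a protease inhibitor, at 6399 and 3742 FPKM against 4.92 and 5.02 FPKM.

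The 12 leading bulge genes were *Gm10260*, *Hist1h2ak*, *Hist1h2bm*, *Gm13306*, *C2cd4b*, *Scrg1*, *Lypd6b*, *Fcgbp*, *Krt5*, *Cyp2s1*, *Krt14* and *Dsg3*. The first 4 are histone genes and numbered gene models whose reads can be shared with near-identical copies, so their levels are uncertain. *Krt5*, on chromosome 15 (101707070 to 101712898), was at 7188 and 7131 FPKM in the bulge and 21.9 and 9.38 FPKM in the dermal papilla, a gap of 340-fold. *Krt14*, its keratin partner in basal cells, was at 12499 and 11712 FPKM against 42.5 and 26.6 FPKM. *Cyp2s1*, a cytochrome P450, was at 61.8 and 60.7 FPKM against 0.19 and 0.08 FPKM. *Dsg3*, a desmosomal cadherin, was the other gene of this group on a list of epithelial genes.

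Genes that build an epithelium were on the bulge side almost throughout. All 13 epithelial keratins tested, 18 of 20 junction genes and 15 of 20 epithelial transcription factors passed the rule in the bulge, and none of these 3 lists held a gene higher in the dermal papilla, where 7.78% and 6.01% of all genes passed in the 2 directions. *Cdh1* (E-cadherin) was at 76.1 and 76.1 FPKM in the bulge against 1.02 and 0.68 FPKM, *Cdh3* (P-cadherin) at 85.5 and 83.4 FPKM against 0.34 and 0.33 FPKM, and *Epcam* at 220 and 219 FPKM against 1.31 and 0.89 FPKM. *Gjb2*, a gap junction connexin, reached 718 and 710 FPKM against 4.06 and 2.76 FPKM. The desmosome genes *Dsg3*, *Dsp* and *Dsc3* had gaps of 285-fold, 147-fold and 140-fold.

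Among the epithelial regulators, *Trp63*, the master transcription factor of stratified epithelium, was at 165 and 166 FPKM in the bulge and 2.70 and 2.03 FPKM in the dermal papilla. *Grhl2*, which maintains junction genes, was at 17.2 and 15.9 FPKM against 0.21 and 0.12 FPKM. *Ovol1*, a repressor of mesenchymal genes, was at 54.9 and 55.0 FPKM against 2.24 and 0.68 FPKM. *Sox9* was at 152 and 141 FPKM against 8.85 and 6.17 FPKM. *Klf5* and *Tfap2c* did not pass: *Klf5* was at 38.1 and 70.9 FPKM in the dermal papilla and 70.0 and 63.6 FPKM in the bulge, so its libraries overlapped.

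The mesenchymal transcription factors were mostly on the other side, with 17 of 22 higher in the dermal papilla (77.3%, beside 7.78% of all genes). None was higher in the bulge, and the median log2 difference was 6.23 against 0.03 over all genes tested. The 1 gene with a mean log2 difference below 0 was *Meox1*. It was at 3.58 and 4.89 FPKM in the bulge against 1.10 and 0.10 FPKM, short of the rule. *Zeb2*, a repressor of epithelial genes, was at 133 and 101 FPKM against 0.61 and 0.66 FPKM, and *Snai1* was at 118 and 93.3 FPKM against 1.11 and 0.51 FPKM. *Twist1* was at 11.3 and 11.6 FPKM and at 0.1 FPKM in both bulge libraries, and *Twist2* was at 35.5 and 31.7 FPKM against 0.10 and 0.39 FPKM. *Zeb1* and *Snai2* did not pass, with *Snai2* at 59.3 and 71.8 FPKM in the dermal papilla and 27.8 and 30.2 FPKM in the bulge. *Sox2*, a marker of the papillae of some hair types, and *Sox18* were at 3.83 and 3.59 FPKM and at 31.9 and 19.2 FPKM, against at most 0.24 FPKM in the bulge. *Vim*, the mesenchymal filament, was at 845 and 628 FPKM against 7.14 and 10.0 FPKM. Its list, mesenchymal adhesion and cytoskeleton genes, was less one-sided, with 5 of 13 higher in the dermal papilla (38.5%, beside 7.78% of all genes). None of the 13 was higher in the bulge, 8 passed on neither side, and 6 had a mean log2 difference below 0.

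ZEB and SNAI proteins bind the letters CAGGTG, read as CACCTG on the other strand. The 250 bases before the RefSeq start of 3 genes with large gaps are shown because 2 are epithelial genes low where *Zeb2* and *Snai1* were high, and the third holds the same letters although it was high in the dermal papilla. Capitals mark each match on either strand. Sequences are from RefSeq, build GRCm38.p6, 5′ to 3′ on the gene's strand.
*Epcam*, chr17:87635729-87635978, plus strand: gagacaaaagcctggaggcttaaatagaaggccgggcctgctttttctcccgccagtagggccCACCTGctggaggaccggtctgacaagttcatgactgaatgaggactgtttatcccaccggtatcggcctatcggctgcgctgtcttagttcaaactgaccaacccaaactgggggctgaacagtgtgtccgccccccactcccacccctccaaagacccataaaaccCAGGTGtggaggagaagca
*Krt5*, chr15:101712906-101713155, minus strand: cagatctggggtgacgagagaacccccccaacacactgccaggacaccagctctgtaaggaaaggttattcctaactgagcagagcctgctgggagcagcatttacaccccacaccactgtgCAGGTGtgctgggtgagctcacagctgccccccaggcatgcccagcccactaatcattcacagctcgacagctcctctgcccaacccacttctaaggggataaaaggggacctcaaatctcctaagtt
*Wif1*, chr10:121033754-121034003, plus strand: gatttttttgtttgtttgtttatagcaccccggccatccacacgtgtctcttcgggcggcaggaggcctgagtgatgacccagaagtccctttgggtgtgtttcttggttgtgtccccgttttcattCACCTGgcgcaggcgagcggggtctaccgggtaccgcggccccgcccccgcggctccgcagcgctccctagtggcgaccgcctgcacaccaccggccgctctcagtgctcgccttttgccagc
The matches begin 187 and 19 bases before the start of *Epcam*, 128 bases before that of *Krt5* and 123 bases before that of *Wif1*. A match of this kind stands in 17.2% of the 32851 windows of the same length in the table, so it is common, and it is a description of letters, not of binding.

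The interstitial matrix, which fibroblasts lay down, was on the dermal papilla side, with 20 of 28 genes past the rule there and 1 in the bulge. Shares of 71.4% and 3.57% of the list stood beside 7.78% and 6.01% of all genes. *Col3a1* was at 1320 and 1069 FPKM against 6.16 and 6.89 FPKM, *Col1a1* at 713 and 377 FPKM against 7.79 and 6.88 FPKM, and *Vcan*, a proteoglycan of the growing papilla, at 344 and 272 FPKM against 1.69 and 1.85 FPKM. The exception was *Tnc*, tenascin C, at 87.5 and 81.6 FPKM in the bulge against 4.05 and 2.55 FPKM. Not every fibroblast gene separated the compartments: *Dcn*, decorin, was at 99.0 and 128 FPKM in the dermal papilla and 96.9 and 91.8 FPKM in the bulge.

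The basement membrane was divided between the 2 sides by subunit. Of 24 genes, 7 were higher in the dermal papilla (*Lama2*, *Lama4*, *Lamb2*, *Lamc3*, *Nid1*, *Nid2* and *Col15a1*) and 6 in the bulge, among them *Lama3*, *Lamb3* and the hemidesmosome collagen gene *Col17a1*. *Lama3* and *Lamb3*, laminin chains of epithelia, were at 11.1 and 10.8 FPKM and at 43.4 and 40.4 FPKM in the bulge, and at most 1.0 FPKM in the dermal papilla. *Lama2* and *Lama4*, the chains of mesenchymal laminins, were at 93.0 and 75.1 FPKM and at 53.2 and 46.9 FPKM in the dermal papilla, and at most 0.27 FPKM in the bulge. The other 11 genes of the list passed on neither side. The counts of 7 and 6 of 24 genes stood beside 7.78% and 6.01% of all genes.

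The integrins, which are laminin and matrix receptors, were divided as well. Of 15 integrins, 5 were higher in the bulge and 3 in the dermal papilla, beside 6.01% and 7.78% of all genes. When libraries were rescaled on ubiquitous genes, 5 were higher in the dermal papilla in place of 3. *Itga6*, *Itgb4* and *Itga3*, the laminin-binding chains of basal cells, were at 41.6 and 41.5 FPKM, 41.9 and 40.4 FPKM and 30.6 and 31.9 FPKM in the bulge, with gaps of 12.9-fold, 24.9-fold and 28.9-fold. *Itga8*, the receptor chain for nephronectin, was at 7.22 and 11.7 FPKM in the dermal papilla against 0.29 and 0.54 FPKM, while its ligand *Npnt* did not pass, at 7.58 and 7.18 FPKM in the bulge and 3.15 and 1.73 FPKM in the dermal papilla. *Itga9* was at 34.3 and 51.0 FPKM against 0.66 and 0.31 FPKM. Of 18 proteases and inhibitors, 8 were higher in the dermal papilla (44.4%, beside 7.78% of all genes), among them *Mmp2* and *Ctsk*. In the bulge 1 was higher (5.56%, near the 6.01% of all genes), the plasminogen activator *Plau*. It did not pass with libraries rescaled on ubiquitous genes.

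*Spp1*, which encodes the secreted phosphoprotein osteopontin, was low in level but one-sided, at 17.0 and 17.2 FPKM in the dermal papilla and at 0.1 FPKM in both bulge libraries. *Cd44*, one of its receptors, was at 78.6 and 67.1 FPKM in the dermal papilla and 69.4 and 65.6 FPKM in the bulge, so the libraries overlapped. These gene values do not separate splice forms, and the study reports the variant CD44 forms that osteopontin prefers as enriched in bulge cells. Of the 8 tested genes for osteopontin and its receptors, 3 were higher in the dermal papilla (*Spp1*, *Itga8* and *Itga9*) and none in the bulge. This share of 37.5% stood beside 7.78% of all genes. In mutant skin at P30 the libraries overlapped for *Spp1*, with 110 and 123 FPKM in the dermal papilla and 109 and 489 FPKM in the bulge. Those dermal papilla and bulge libraries also differed in sex, and the difference between the genotypes was not tested. In wild type skin at P56 all 3 genes, *Spp1* among them, passed the rule on the dermal papilla side, and in mutant skin at P56 2 of the 3 did.

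**Figure D3:**
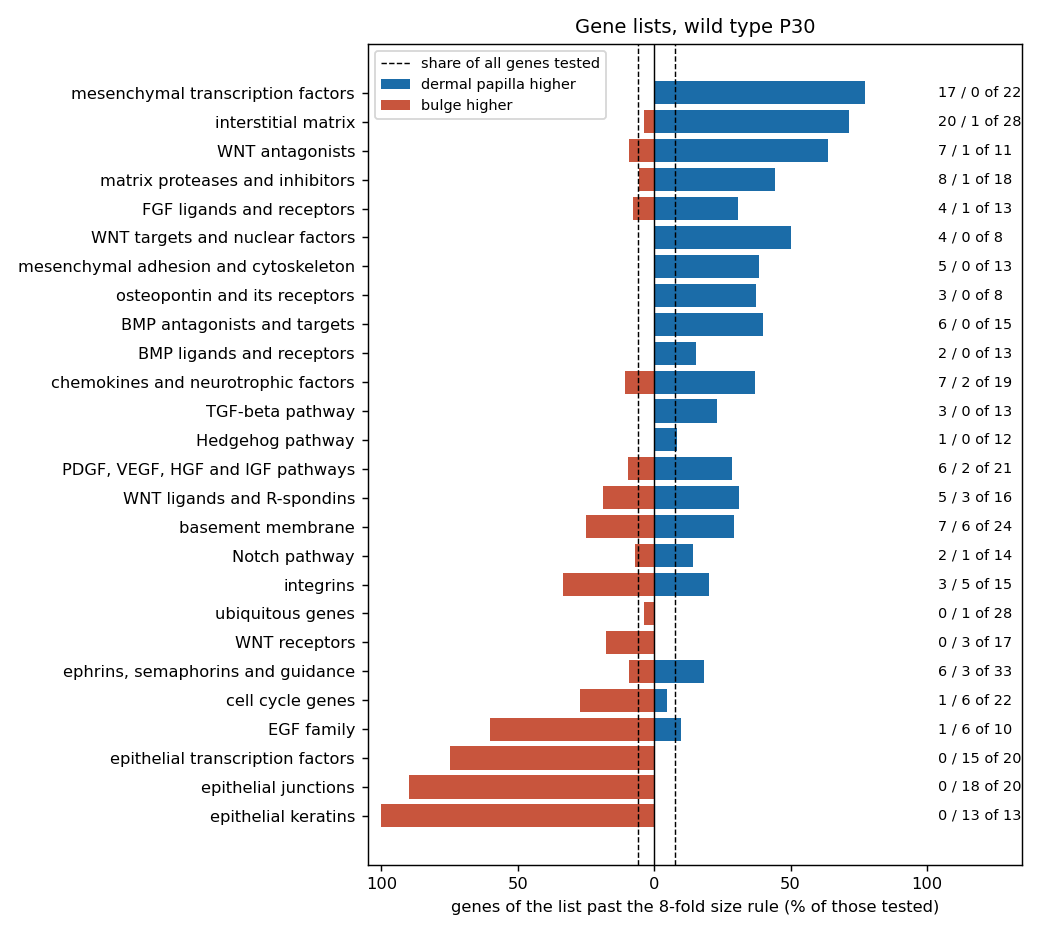
For each gene list (rows), the bars give the percentage of its tested genes past the 8-fold rule in the wild type P30 libraries, to the right for the dermal papilla and to the left for the bulge, with the counts for the dermal papilla and the bulge at the right. Dashed lines mark the shares over all genes tested, 7.78% and 6.01%; mesenchymal transcription factors stand at the top with 17 of 22 and epithelial keratins at the bottom with 13 of 13.

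Of 16 WNT ligands, R-spondins and secretion factors, 5 were higher in the dermal papilla (31.2%), 3 in the bulge (18.8%) and 8 in neither. Over all genes these shares were 7.78% and 6.01%. The dermal papilla had *Wnt5a*, a mostly non-canonical ligand, at 122 and 95.6 FPKM against 4.52 and 4.98 FPKM, and all 4 R-spondins, which amplify WNT signals. *Rspo4* was at 833 and 1195 FPKM, *Rspo3* at 515 and 719 FPKM, *Rspo2* at 228 and 233 FPKM and *Rspo1* at 162 and 249 FPKM, against at most 1.17 FPKM for any of the 4 in the bulge. The bulge had *Wnt3* at 9.59 and 9.89 FPKM, *Wnt7b* at 7.16 and 6.65 FPKM and *Wnt4* at 10.1 and 11.5 FPKM, against at most 1.30 FPKM. R-spondins were thus read in the dermal papilla, and their receptor *Lgr5* in the bulge, while the related receptor *Lgr4* was alike, at 18.6 and 21.4 FPKM against 23.1 and 22.9 FPKM.

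Secreted WNT antagonists were also on the dermal papilla side, with 7 of 11 genes past the rule (63.6%, beside 7.78% of all genes). *Wif1*, which binds WNT proteins, was at 3014 and 3870 FPKM against 1.56 and 1.55 FPKM, *Sfrp2* at 524 and 331 FPKM against 0.70 and 0.66 FPKM, and *Notum*, which removes the lipid of WNT proteins, at 355 and 192 FPKM against 0.86 and 0.80 FPKM. *Frzb* and *Dkk2* were at 0.1 FPKM in both bulge libraries, and at 104.4 and 161 FPKM and at 19.2 and 32.3 FPKM in the dermal papilla. The exception was *Rnf43*, a membrane ligase that lowers WNT receptors, at 5.43 and 6.88 FPKM in the bulge against 0.36 and 0.11 FPKM.

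Of 17 WNT receptors, 3 were higher in the bulge (17.6%, beside 6.01% of all genes) and none in the dermal papilla. These were *Lgr5*, *Fzd5* at 25.02 and 24.3 FPKM against 0.43 and 0.81 FPKM, and *Fzd6* at 18.7 and 18.1 FPKM against 0.16 and 0.17 FPKM. *Fzd1* had the highest level of the family in both, at 194 and 203 FPKM in the dermal papilla and 102 and 94.0 FPKM in the bulge. Of 8 WNT target genes and nuclear factors, 4 were higher in the dermal papilla and none in the bulge. These counts stood beside 7.78% and 6.01% of all genes. *Lef1*, a nuclear partner of beta-catenin, was at 203 and 203 FPKM against 1.7 and 2.0 FPKM, and the feedback inhibitors *Nkd2* and *Axin2* were at 184 and 229 FPKM against 0.98 and 1.10 FPKM and at 13.4 and 12.5 FPKM against 0.78 and 0.87 FPKM. The other gene that passed was *Nkd1*, and 3 of the 8 had a mean log2 difference below 0.

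**Figure D4:**
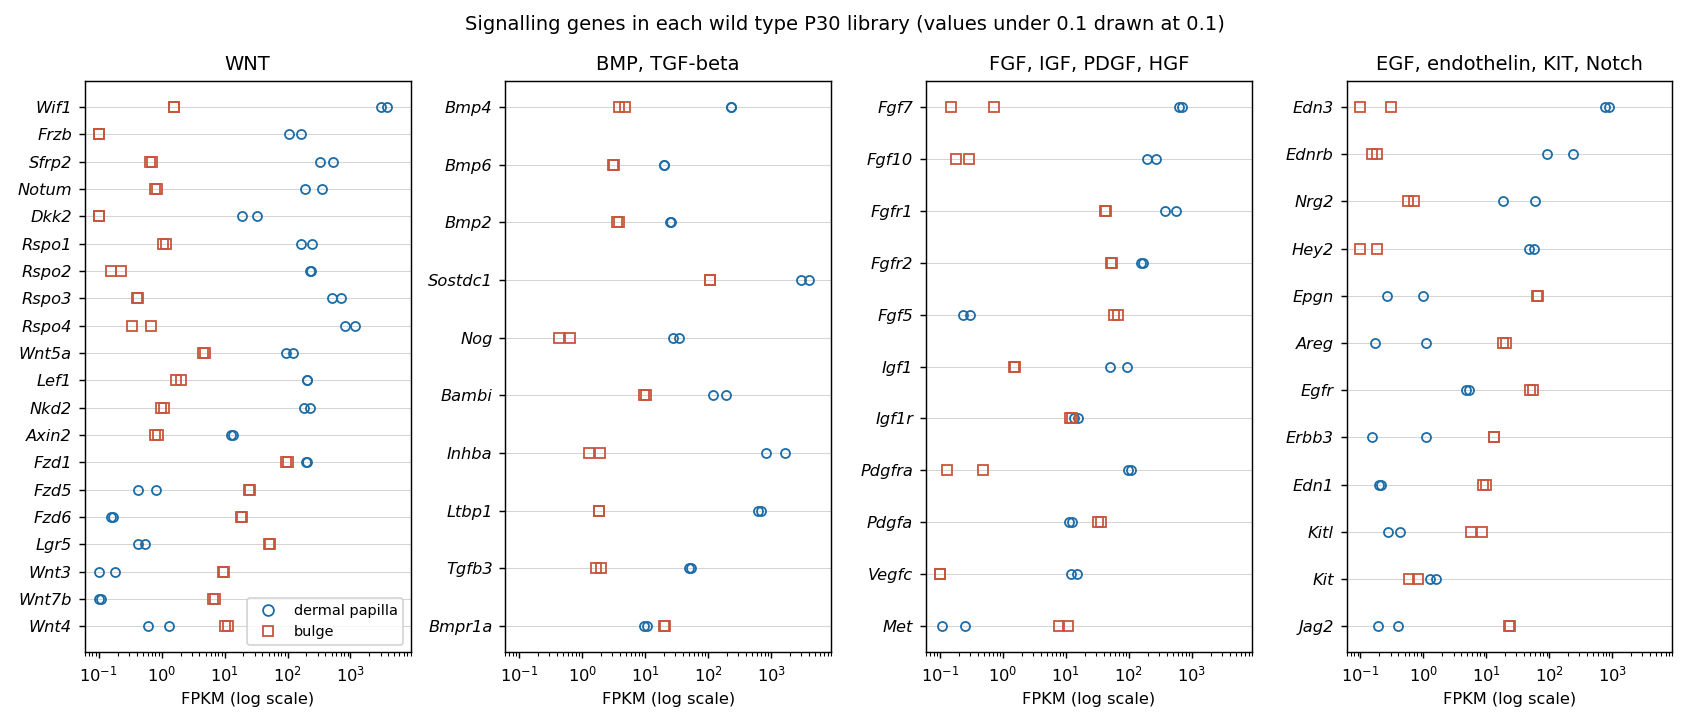
FPKM of signalling genes in each wild type P30 library (x axis, log scale, values under 0.1 drawn at 0.1), with circles for the 2 dermal papilla and squares for the 2 bulge libraries. R-spondins, WNT antagonists, *Fgf7*, *Fgf10* and *Edn3* lie to the right in the dermal papilla, and *Wnt3*, *Fgf5*, *Epgn*, *Met* and *Jag2* in the bulge, while *Igf1r* lies within 11.8 to 15.4 FPKM in all 4.

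The BMP ligand *Bmp4* was at 234 and 230 FPKM against 3.80 and 4.75 FPKM. It and *Gdf10* were the 2 of 13 ligands and receptors past the rule (15.4%, beside 7.78% of all genes). *Bmp6*, a BMP made by bulge cells at rest, was at 19.93 and 19.98 FPKM in the dermal papilla and 3.10 and 3.21 FPKM in the bulge, and *Bmp2* was at 25.4 and 24.8 FPKM against 3.89 and 3.51 FPKM. These 2 gaps, 5.86-fold and 6.30-fold, fell short of the rule, and with libraries rescaled on ubiquitous genes 5 of the 13 passed in place of 2. The receptor *Bmpr1a* was at 9.70 and 10.7 FPKM in the dermal papilla and 20.6 and 19.8 FPKM in the bulge.

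BMP antagonists were on the same side. Of 15 antagonists and targets, 6 were higher in the dermal papilla (40.0%, beside 7.78% of all genes) and none in the bulge. *Sostdc1*, which blocks both BMP and WNT signals, was at 2985 and 3939 FPKM, against a level of 106 and 107 FPKM in the bulge that was itself well read. *Nog*, noggin, was at 28.0 and 34.2 FPKM against 0.65 and 0.43 FPKM, and *Bambi*, a decoy receptor, at 118 and 195 FPKM against 9.67 and 10.3 FPKM. The BMP target genes did not pass: *Id1* was at 352 and 402 FPKM in the dermal papilla and 504 and 455 FPKM in the bulge, and *Id3* at 2012 and 2457 FPKM against 912 and 830 FPKM.

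In the TGF-beta pathway 3 of 13 genes were higher in the dermal papilla (23.1%, beside 7.78% of all genes). *Inhba*, the activin A subunit, was at 815 and 1648 FPKM against 1.27 and 1.93 FPKM, *Ltbp1*, which stores latent TGF-beta, at 626 and 690 FPKM against 1.86 and 1.84 FPKM, and *Tgfb3* at 52.7 and 49.3 FPKM against 2.02 and 1.68 FPKM. *Tgfb2*, a papilla factor that acts on the stem cells, was at 34.8 and 49.9 FPKM against 6.64 and 5.57 FPKM, short of the rule. The receptors *Tgfbr1* and *Tgfbr2* were read in both, at 9.0 to 29.6 FPKM.

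FGF ligands took opposite sides. *Fgf7* and *Fgf10*, papilla ligands of the epithelial form of FGFR2, were at 711 and 623 FPKM against 0.15 and 0.72 FPKM and at 274 and 196 FPKM against 0.18 and 0.29 FPKM. *Fgf5*, which ends the growth phase, was at 68.1 and 57.5 FPKM in the bulge against 0.30 and 0.23 FPKM, a gap of 203-fold. *Fgfr1* was higher in the dermal papilla, at 558 and 382 FPKM against 43.6 and 42.6 FPKM. *Fgfr2* was read in both, at 168 and 154 FPKM in the dermal papilla and 54.8 and 52.6 FPKM in the bulge, and these gene values do not separate its 2 splice forms.

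In the Hedgehog pathway 1 of 12 genes passed in the dermal papilla (8.33%, near the 7.78% of all genes) and none in the bulge, and 9 of the 12 had a mean log2 difference above 0. The gene that passed was *Hhip*, which binds Hedgehog ligands, at 810 and 688 FPKM against 0.33 and 0.33 FPKM. *Shh* did not reach the filter, with 0 FPKM in both dermal papilla libraries and 0.21 and 0.29 FPKM in the bulge. The target genes *Ptch1* and *Gli1* were at 30.0 and 21.7 FPKM and at 19.4 and 8.91 FPKM in the dermal papilla, and at 5.53 and 4.78 FPKM and at 5.0 and 6.39 FPKM in the bulge.

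Ligands and receptors of the PDGF, VEGF, HGF and IGF pathways gave 6 of 21 genes higher in the dermal papilla and 2 in the bulge. The first share, 28.6%, stood beside 7.78% of all genes, and the second, 9.52%, was near the 6.01% of all genes. *Pdgfra* was at 108 and 97.5 FPKM in the dermal papilla against 0.13 and 0.48 FPKM, while its ligand *Pdgfa* was at 32.9 and 36.0 FPKM in the bulge and 12.7 and 11.3 FPKM in the dermal papilla. *Igf1* was at 50.7 and 94.4 FPKM in the dermal papilla against 1.48 and 1.55 FPKM, with its receptor *Igf1r* at 15.4 and 13.3 FPKM against 11.8 and 12.6 FPKM. *Met* was higher in the bulge, at 7.67 and 10.7 FPKM against 0.25 and 0.11 FPKM, and its ligand *Hgf* stayed under the filter, at 0.74 and 0.96 FPKM in the dermal papilla and at 0.1 FPKM in the bulge.

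The EGF family was the signalling list most on the bulge side, with 6 of 10 genes there and 1 in the dermal papilla. The bulge share, 60.0%, stood beside 6.01% of all genes, and the dermal papilla share, 10.0%, was near 7.78%. *Egfr* itself was at 55.7 and 50.1 FPKM against 4.68 and 5.33 FPKM. The ligand *Epgn*, epigen, was at 66.2 and 63.6 FPKM against 0.99 and 0.26 FPKM, and *Hbegf* was at 168 and 168 FPKM against 13.6 and 9.80 FPKM. The dermal papilla gene was *Nrg2*, a neuregulin, at 18.0 and 59.2 FPKM against 0.72 and 0.56 FPKM.

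Notch genes gave 2 of 14 in the dermal papilla, *Hey1* and *Hey2*, and 1 in the bulge, the ligand *Jag2* at 23.5 and 22.5 FPKM against 0.40 and 0.19 FPKM. These shares, 14.3% and 7.14%, stood beside 7.78% and 6.01% of all genes, and 11 of the 14 passed on neither side. *Hey2*, a transcriptional repressor downstream of Notch, was at 56.7 and 48.2 FPKM in the dermal papilla against 0.10 and 0.18 FPKM. *Notch1* and *Jag1* were read in both and did not pass, at 39.1 and 36.9 FPKM and at 60.9 and 61.9 FPKM in the bulge.

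Of 19 chemokine, endothelin, KIT ligand and neurotrophic genes, 7 were higher in the dermal papilla (36.8%) and 2 in the bulge (10.5%). Over all genes these shares were 7.78% and 6.01%. Beside *Edn3*, its receptor *Ednrb* was at 91.6 and 234 FPKM in the dermal papilla against 0.18 and 0.15 FPKM. *Kitl*, the ligand for KIT on melanocytes, was higher in the bulge, at 8.41 and 5.63 FPKM against 0.27 and 0.42 FPKM, and *Edn1* likewise at 8.87 and 9.76 FPKM against 0.20 and 0.21 FPKM. *Kit* was low in both, at 1.25 and 1.57 FPKM in the dermal papilla and 0.81 and 0.59 FPKM in the bulge. *Bdnf*, *Ntrk2* and *Ntrk3*, a neurotrophin and receptors for neurotrophins, were higher in the dermal papilla.

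Among guidance genes, 6 of 33 were higher in the dermal papilla (18.2%, beside 7.78% of all genes) and 3 in the bulge (9.09%, near the 6.01% of all genes). *Slit2*, a guidance ligand, and its receptor *Robo2* were both on the dermal papilla side, at 19.4 and 14.1 FPKM against 0.75 and 0.94 FPKM and at 54.5 and 46.7 FPKM against 1.56 and 1.55 FPKM. *Plxnb1*, a semaphorin receptor, *Sema3e* and *Ntn4* were on the bulge side, at 10.7 to 14.2 FPKM against at most 0.78 FPKM.

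Of 22 cell cycle genes, 6 were higher in the bulge (27.3%) and 1 in the dermal papilla (4.55%). Over all genes these shares were 6.01% and 7.78%. The median log2 difference of the cell cycle genes was -2.92. *Mki67* was at 11.5 and 10.4 FPKM in the bulge against 0.47 and 0.27 FPKM, and the replication helicase gene *Mcm5* was at 59.1 and 55.9 FPKM against 3.94 and 2.45 FPKM. The one gene of the opposite side was *Cdkn1c*, the cyclin kinase inhibitor p57, at 87.8 and 85.8 FPKM in the dermal papilla against 2.61 and 2.62 FPKM. With libraries rescaled on ubiquitous genes, 2 of the 22 were higher in the bulge in place of 6. Of 54 replication-dependent histone genes, 18 were higher in the bulge (33.3%, beside 6.01% of all genes) and none in the dermal papilla. Under that rescaling 13 of the 54 were higher in the bulge, and reads of such genes can be shared between near-identical copies.

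The ribosomal protein genes moved together without passing the rule. All 76 had a lower mean log2 value in the dermal papilla, with a median log2 difference of -1.70, and none passed the 8-fold rule. The 28 ubiquitous genes had a median of -0.50, and the listed values summed to 583549 and 604879 FPKM in the dermal papilla and 719592 and 704604 FPKM in the bulge. When the libraries were instead rescaled on the ubiquitous genes, the median over all genes moved from 0.03 to 0.56 and the counts became 1234 in the dermal papilla and 563 in the bulge, that is 68.7% of passing genes in the dermal papilla in place of 56.4%. The median of the ribosomal protein genes stayed below 0 under that scaling, at -1.17, and all 987 dermal papilla genes and 563 of the 762 bulge genes still passed.

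The 2 bulge libraries were closer to each other than any other pair. Over genes at 10 FPKM or more in both, they differed by a median of 1.06-fold, whereas the other 7 pairs of dermal papilla or bulge libraries differed by 1.15-fold to 1.22-fold. The tables hold no counts, so whether the 2 differ by more than sampling noise could not be tested; the study describes them as independent experiments. Leaving out either bulge library gave 1092 and 1074 genes in the dermal papilla and 799 and 806 in the bulge.

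Among the libraries of the other conditions, those of wild type P56 dermal papilla stood apart. Their summed dermal papilla markers were 2148 and 6883 FPKM, against 15878 and 18245 FPKM at P30 and 10061 and 12295 FPKM in mutant P56 dermal papilla. *Wif1* was at 51.6 FPKM in replicate 1 and 1598 FPKM in replicate 2, and *Hhip* at 8.58 and 374 FPKM, so replicate 1 held less of both. Mural and arrector muscle markers summed to 5584 and 5004 FPKM against 516 and 303 FPKM at P30, with *Acta2* at 2977 and 2773 FPKM against 287 and 215 FPKM, and Schwann cell and adipocyte markers to 1157 and 676 FPKM against 162 and 234 FPKM. In the bulge, *Acta2* went the other way, at 142 and 145 FPKM at P30 and 15.8 and 0.73 FPKM at P56. In both cell types the P30 wild type libraries read the Y-linked *Ddx3y* and the P56 ones read *Xist*, so the sex of the mice and their age cannot be told apart. In mutant skin the compartments differed in sex: at P30 the dermal papilla libraries read *Xist* (20.4 and 23.9 FPKM) and the bulge libraries *Ddx3y*, and at P56 the reverse, so the mutant counts below compare cells of different sexes.

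The same rule was then applied to the other conditions for the same genes. Of the 987 dermal papilla genes, 617 passed it in mutant skin at P30, 506 in wild type skin at P56 and 657 in mutant skin at P56, where 5.76%, 6.0% and 6.13% of all genes passed on that side. Of the 762 bulge genes, 502, 295 and 344 passed, against 4.94%, 3.26% and 3.31% of all genes. In all 4 conditions, 330 dermal papilla genes and 180 bulge genes passed. In wild type skin at P56, 94.9% of the dermal papilla genes and 90.3% of the bulge genes had a mean difference of the same sign, a share that includes the genes past the rule.

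In wild type skin, 3 genes passed the rule at both ages, but on opposite sides. *Col8a2*, a short-chain collagen, was at 16.8 and 14.1 FPKM in the dermal papilla and 1.11 and 1.01 FPKM in the bulge at P30, and at 1.54 and 4.40 FPKM against 97.5 and 166 FPKM at P56. *Plekhb1*, a pleckstrin homology protein, was at 1.22 and 0.36 FPKM against 24.5 and 20.1 FPKM at P30, and at 61.9 and 45.4 FPKM against 0.74 and 0.47 FPKM at P56. *Adamts20*, a matrix protease, was at 1.04 and 0.63 FPKM against 9.73 and 11.4 FPKM at P30, and at 15.0 and 4.44 FPKM against 0.50 and 0.10 FPKM at P56.

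**Figure D5:**
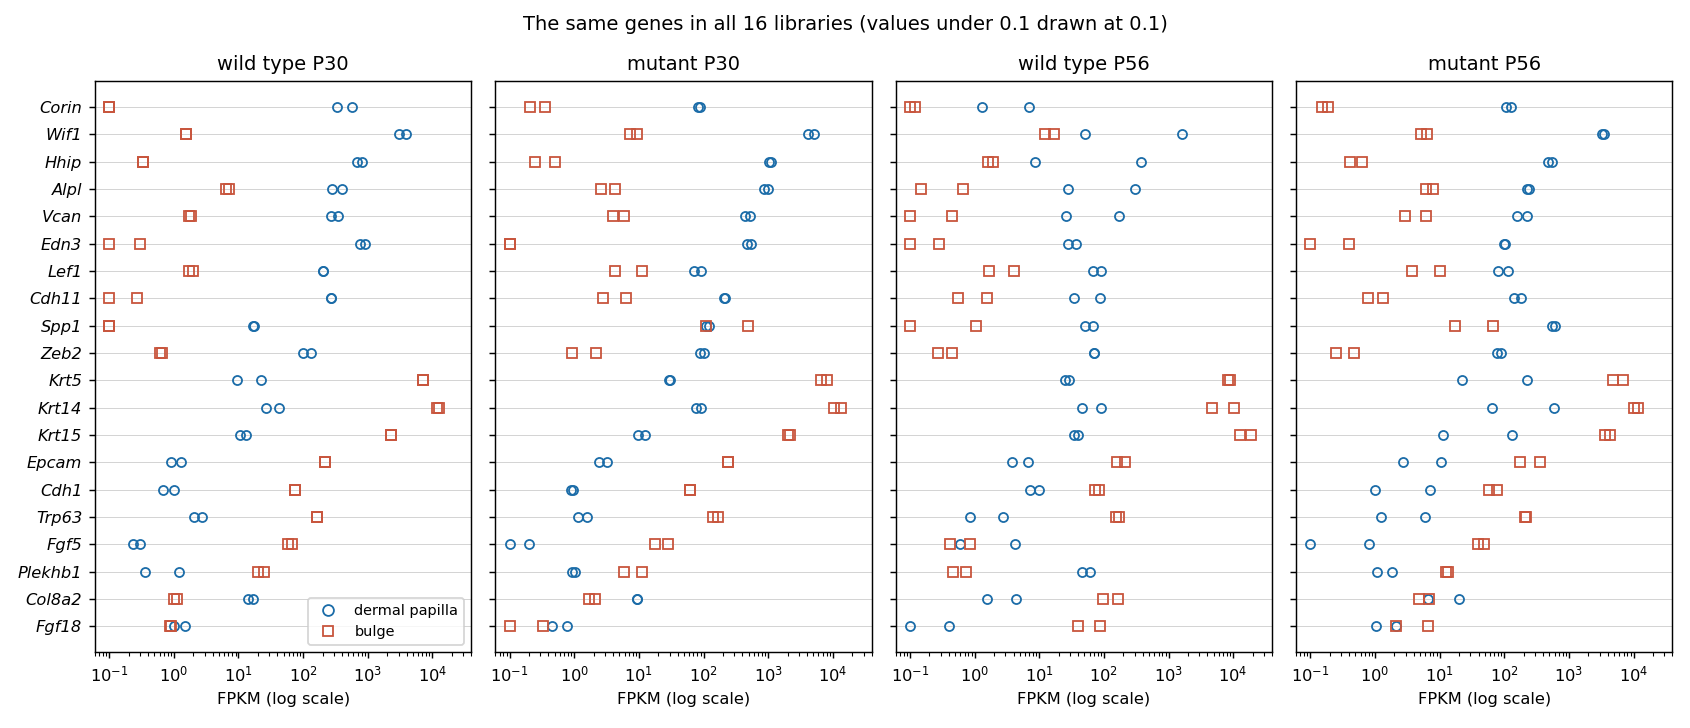
FPKM of 20 genes (rows; x axis on a log scale, values under 0.1 drawn at 0.1) in the 2 dermal papilla libraries (circles) and 2 bulge libraries (squares) of each genotype and age. *Krt5*, *Krt14* and *Zeb2* keep their sides in all panels, *Corin* is at 1.30 and 6.86 FPKM in wild type dermal papilla at P56, and *Plekhb1* and *Col8a2* change sides between the wild type panels.

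Whether the change with age differed between the cell types was tested within one fit, since each change lies inside 1 table. In limma over 16 libraries, with Benjamini-Hochberg adjustment and at least a 2-fold difference required, 4102 of 13666 genes (30.0%) had a change from P30 to P56 that differed between dermal papilla and bulge. The change was higher in the dermal papilla for 2089 genes (15.3%) and lower for 2013 (14.7%); without rescaling these were 1534 and 2514. Without replicate 1 of the P56 wild type dermal papilla, 3524 genes passed, 3173 of them shared. Within the cell types, 3098 genes (22.7%) changed in the dermal papilla, 1695 upward (12.4%) and 1403 downward (10.3%). In the bulge 2506 changed (18.3%), 1296 upward (9.48%) and 1210 downward (8.85%); this count was 1657 without its P30 replicate 1 and 1650 without its P30 replicate 2.

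Several lists went mainly one way in this test. All 10 BMP antagonists and targets that passed, of 16 tested, had a lower change in the dermal papilla, as had all 6 of 13 WNT antagonists, where 14.7% of all genes did. *Sostdc1* was at 98.6 and 406 FPKM in the dermal papilla at P56 and rose in the bulge from 106 and 107 FPKM to 416 and 704 FPKM, so the compartments that stood 26.3-fold apart at P30 had the bulge at the higher level at P56 (interaction log2 -6.20 ± 0.70, SE, limma adjusted p = 1.0e-04). Of 19 dermal papilla markers, 8 were lower and 2 higher, where 14.7% of all genes were lower and 15.3% higher. Of 14 fibroblast markers, 10 were higher and none lower, and of 10 mural and muscle markers 8 were higher and none lower. Both counts stood beside the same 15.3% of all genes and the marker sums given above. The part of other cells in the P56 dermal papilla libraries was not tested.

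Of 22 cell cycle genes, 15 had a higher change in the dermal papilla and 1 a lower one, where 15.3% of all genes were higher. In the bulge 18 of the 22 fell between P30 and P56, where 8.85% of all genes did. In the dermal papilla 3 rose and 3 fell, where 12.4% of all genes rose and 10.3% fell. *Mki67* fell in the bulge, from 11.5 and 10.4 FPKM to 5.73 and 2.27 FPKM (limma adjusted p = 0.010). In the dermal papilla *Mki67* was low at both ages and rose, from 0.47 and 0.27 FPKM to 1.41 and 0.89 FPKM (limma adjusted p = 0.0092). The dermal papilla libraries of the 2 ages also differed in sex and in marker sums of other cells, and the part of these in the rise was not tested. *Cd34* and *Nfatc1*, which were short of the 8-fold rule at P30, rose in both: *Cd34* reached 465 and 906 FPKM in the bulge and 114 and 106 FPKM in the dermal papilla, and its change did not pass as different between them (interaction log2 0.65 ± 0.56, SE, limma adjusted p = 0.39). *Krt15* rose in the bulge to 12592 and 18542 FPKM.

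The 5 genes with the most negative interaction were *Col8a2*, *Tnfaip8l3*, *Fgf18*, *Kcnip4* and *Cck*. *Fgf18*, an FGF of resting bulge cells, rose in the bulge from 0.89 and 0.86 FPKM to 40.5 and 87.6 FPKM and fell in the dermal papilla from 1.47 and 1.02 FPKM to 0.40 and 0.07 FPKM. *Cck*, the peptide cholecystokinin, rose in both, in the bulge from 0.32 and 0.29 FPKM to 242 and 186 FPKM and in the dermal papilla from 6.06 and 10.3 FPKM to 27.7 and 14.8 FPKM. *Kcnip4*, a potassium channel partner, fell in the dermal papilla from 16.3 and 39.5 FPKM to 0 and 0.15 FPKM. *Tnfaip8l3* fell from 5.05 and 2.94 FPKM to 0 FPKM in both dermal papilla libraries and rose in the bulge from 1.01 and 0.92 FPKM to 15.7 and 14.3 FPKM.

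The 5 with the most positive interaction were *Plekhb1*, *Gfra3*, *Nes*, *Efhd1* and *Fgf5*. *Gfra3*, a receptor for artemin, rose in the dermal papilla from 1.44 and 0.47 FPKM to 48.2 and 20.7 FPKM and fell in the bulge from 3.58 and 3.22 FPKM to 0.1 FPKM in both. *Nes*, nestin, rose from 3.24 and 0.59 FPKM to 59.6 and 29.2 FPKM in the dermal papilla and fell from 4.08 and 3.56 FPKM to 0.19 and 0.10 FPKM in the bulge. *Fgf5* fell in the bulge from 68.1 and 57.5 FPKM to 0.84 and 0.41 FPKM and was at 4.19 and 0.59 FPKM in the dermal papilla at P56. *Gfra3* and *Nes* rose beside the nerve growth factor receptor gene *Ngfr*, which was at 2.02 and 0.42 FPKM at P30 and 116 and 42.6 FPKM at P56 in the dermal papilla.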

How the data were processed

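Total RNA from sorted mouse dorsal skin cells was sequenced in 38 libraries, of which 16 (dermal papilla and bulge) were used. The authors prepared libraries by Smart-seq2, sequenced paired 43-base reads, aligned them to mm10 with STAR (version 2.4.2 per the submitters' processing notes) and quantified genes with RSEM against GENCODE, and deposited FPKM values per gene in 1 table per cell type. The tables hold no counts, so depth per library and its sampling error are unknown here, and count tests could not be used. The bulge table has no value under 0.1 FPKM, while the dermal papilla table goes to 0.

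The tables were joined on Ensembl identifiers (18841 shared, 15464 protein-coding), after 25 and 23 gene symbols listed as calendar dates were restored. Values under 0.1 were set to 0.1 and log2 values rescaled by median ratios over genes at 1 FPKM or more in every library. Differences between the tables rest on the 8-fold size rule alone. Genes read in 1 table only (1379 dermal papilla, 688 bulge) entered no comparison. Changes with age were fitted with limma 3.58.1 (trend, R 4.3.3) over 8 groups of 16 libraries, and both steps were tested on simulated data. Positions are from GENCODE on GRCm38. Tables of 4 other cell types were not used.

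Named genes were, in each direction, the 12 past the rule with the largest gap at 20 FPKM or more, up to 4 per list, the 5 largest interactions at 5 FPKM or more, and a fixed list of pathway genes. Further members of the lists, and the lists of ribosomal protein, histone and mitochondrial genes, were named after their values were seen. The members and lists were chosen with earlier results of these data known. Alternatives covered the rescaling, the floor, the filter, the size of the gap and each library left out. Those that drop histone genes and numbered gene models, or that filter again after leaving out a library, were chosen after seeing the data.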

Additional observations from a re-analysis of the deposited data

Results flagged for a closer look

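The change from P30 to P56 differed between the wild type dermal papilla and bulge by the interaction term of the limma fit for 10 genes, the 5 largest in each direction by the rule for named genes. Their interaction log2 values were -9.23 for *Col8a2*, -8.98 for *Tnfaip8l3*, -8.46 for *Fgf18*, -8.35 for *Kcnip4* and -7.84 for *Cck*, and 11.80 for *Plekhb1*, 10.59 for *Gfra3*, 9.95 for *Nes*, 9.73 for *Efhd1* and 9.57 for *Fgf5*. The limma adjusted p ran from 3.5e-06 for *Plekhb1* to 3.3e-04 for *Fgf5*, and each of the 10 passed under all 13 alternatives. None of these alternatives addresses the marker sums of other cells in the P56 dermal papilla libraries or the sex of the mice, given above. The part of either in these 10 genes was not tested. *Efhd1*, a calcium-binding mitochondrial protein, was at 0.05 FPKM in both dermal papilla libraries at P30 and at 29.2 and 11.8 FPKM at P56.

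In mutant skin, *Plekhb1* was at 13.7 and 12.4 FPKM in the mutant bulge at P56 and 1.09 and 1.84 FPKM in the mutant dermal papilla, so its libraries were higher in the bulge, the side it had in wild type skin at P30. *Cck* was at 4.22 and 6.33 FPKM in the mutant bulge at P56, and *Fgf5* was at 48.5 and 39.5 FPKM there. These 3 genes were picked after their values were seen, and the difference between the genotypes was not tested.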

How the results depend on the processing

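Depth is unknown, each group has 2 libraries, and the tables of the 2 cell types were made separately, so the P30 counts describe these libraries. With values under 1 FPKM set to 1, 624 genes passed in the dermal papilla and 500 in the bulge. A 4-fold gap gave 1546 and 1232, and a 16-fold gap 638 and 443. Leaving out 1 library at a time with the genes tested kept gave 1074 to 1107 in the dermal papilla and 799 to 990 in the bulge; with the filter applied again to the 3 libraries left, the dermal papilla count was 338 and 325 without its replicates 1 and 2, and the bulge count 302 and 305 without its own, since a gene read only in the lone library of its cell type then fails the filter. Without histone genes and numbered gene models 968 and 724 passed. Of the 762 bulge genes, 653 passed with equal sums over the genes tested, where the dermal papilla count was 1122.

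With 1 library left out at a time, assuming that a lone library varies like the other groups, the interaction count was 3129 to 4157, the dermal papilla age count 2120 to 3250 and the bulge age count 1650 to 2607. Same-numbered wild type libraries of P30 and P56 did not deviate together (correlation -0.05 in the dermal papilla, 0.01 in the bulge). The libraries of these ages differed in sex, so they came from different mice and these values cannot test for shared animals. Between wild type dermal papilla and bulge at P30 the correlation was -0.01. This value alone cannot show whether cells of both came from the same mice. With a replicate block the counts were 4022, 3022 and 2458. Without rescaling, the bulge age count of 2506, with 1296 higher and 1210 lower at P56, became 2534 with 1580 and 954.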

Other observations

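Genes listed in 1 of the 2 tables have no value to compare. Of 1379 such protein-coding genes of the dermal papilla table, 146 were at 1 FPKM or more in both wild type P30 libraries. The highest were *Pappa2*, a protease of insulin-like growth factor binding proteins, at 106 and 64.7 FPKM, *Angpt4*, an angiopoietin, at 77.4 and 50.3 FPKM, and *Lingo2* at 54.5 and 48.8 FPKM. *Apela*, a ligand of the apelin receptor, was at 31.4 and 43.4 FPKM. Of 688 genes of the bulge table alone, 20 reached that level, led by the chemokine gene *Ccl27b* at 169 and 207 FPKM, *Csn3*, kappa casein, at 44.0 and 44.3 FPKM, and *Dhrs9*, a retinol dehydrogenase, at 16.3 and 17.1 FPKM.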
